A study of Mus musculus with 18 samples.

Results

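Livers of wild-type (WT, AIM+/+) C57BL/6 mice after 12 weeks of a high-fat diet (HFD) were set against livers of WT mice fed normal chow, over every gene that the array annotation names. The comparison rests on 6 of the 18 arrays of the series, namely the 3 that the labels call WT on HFD for 12 weeks and the 3 that they call WT on chow. The other arrays are WT livers at 20 weeks and livers of AIM-KO (AIM-/-) mice, which lack the macrophage protein AIM encoded by Cd5l, on chow or after 12 or 20 weeks. Replicates are labelled biological, with no word on whether a separate animal lies behind each one, so the p-values measure the spread between these samples, which may be technical. Age, sex, the composition of the diet and the time of day of sampling are not given in the labels. The chow mice are at 0 weeks of HFD. Since no ages are given, a change with diet and a change with age cannot be told apart in this comparison.

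Liver takes up, makes, stores and exports fat. On a fat-rich diet hepatocytes store triglyceride in lipid droplets, whose coat proteins (perilipins and CIDE proteins) control droplet size and breakdown. The nuclear receptor PPAR-alpha drives genes of fatty acid oxidation, and PPAR-gamma, low in lean liver, drives storage genes. Fat-laden liver can also take on macrophages, deposit collagen and lower its synthesis of drug-metabolizing enzymes.

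Values are the deposited intensities of Affymetrix Mouse Genome 430 2.0 probe sets. Changes are HFD minus chow on the scale log2(intensity + 3.3), given ± SE with n = 3 arrays per group, and this scale understates the change of dim genes. Each SE comes from a spread pooled over all 18 arrays of the series, with AIM-KO livers and the later WT livers included. It is thus not the spread of the 6 compared arrays alone, and for a single gene the 2 can differ. A gene was called when its adjusted p in limma, over the 14691 genes tested, was under 0.05, and "rose" and "fell" are used only of called genes. Arrays are numbered by the replicate number in their labels. The median intensity was 16 to 17.9 and the highest 10601.1 to 14288.5 on the 6 arrays, and the small number of arrays limits the precision. Arrays correlated at 0.942 to 0.95 within a group and at 0.933 to 0.944 between groups. RNA integrity, read from the 3'/5' ratio of actin, gave values of 2.53 to 2.75 on chow and 2.52 to 3.79 on HFD, where array 2 gave the highest value.

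The labelled tissue, liver, was checked on its marker genes. Among the 12 hepatocyte markers tested, albumin (Alb) read 6970.5 to 9877.1 and transthyretin (Ttr) 8269.8 to 11074.0 on the 6 arrays, at the top of the range. All 12 marker differences were below 0 (median -0.18), and 1, Hnf4a, was called, a call that ended without chow array 2 or 3 or HFD array 1 (adjusted p = 0.12 to 0.21). Xist, the transcript of the inactive X chromosome, read 7.8 to 17.8 and the Y-linked gene Eif2s3y 499.5 to 627.9, so all 6 libraries carry the transcripts of male tissue. Cd5l itself read 702.6, 781 and 753.9 on chow and 1588.7, 1229.7 and 964.6 at 12 weeks. Its levels did not overlap between the groups, and its difference of 0.73 ± 0.35 did not pass the test (adjusted p = 0.27). That SE draws also on the AIM-KO arrays, from mice that lack Cd5l, so it is not the spread of the WT livers alone.

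Of the 14691 genes, 514 rose and 239 fell, which is 3.5% and 1.63% of those tested and 5.13% together. An unadjusted p under 0.05 in limma was seen for 2849 of the 14691 genes. Counts of list members at that unadjusted p, given below, are to be read against this background. In bulk tissue, more cells of a type and more RNA per cell cannot be told apart. The median change was 0.96 among genes that rose and -0.69 among genes that fell, against -0.001 over all genes. At least 2-fold changes were seen in 245 genes that rose and 70 that fell, and at least 8-fold changes in 14 and 3. Values of the 2 groups did not overlap for 746 of the 753 called genes, and for 23.9% of all genes tested. A lack of overlap thus adds little to a call, and the largest rises and falls were named only where it held. HFD array 1 had the most extreme of the 3 HFD values in 294 of the 514 genes that rose and in 125 of the 239 that fell. Without that array 334 genes were called (238 higher and 96 lower), 330 of them also called with it. The count was 413 without chow array 2 and 478 without chow array 3. With 1 of the 6 arrays left out in turn, the calls in small lists described below ranged as follows against their number in the full fit: fatty acid synthesis 1 to 6 against 2, cholesterol synthesis 0 to 7 against 2, cholesterol handling 1 to 2 against 2, growth hormone and IGF axis 0 to 2 against 2, complement 3 to 7 against 5, lysosomal enzymes 2 to 5 against 4, p53 targets 1 to 5 against 3, ER stress and amino acid response 1 to 4 against 2, urea cycle and amino acid breakdown 1 to 6 against 2, iron and haem 0 to 1 against 1, pericentral hepatocyte genes 1 to 2 against 3, periportal hepatocyte genes 2 to 4 against 4, stellate cell markers 1 to 5 against 3, NRF2 targets 0 to 2 against 1, hepatocyte markers 0 to 2 against 1, triglyceride synthesis and export 1 to 2 against 1, coagulation 0 to 4 against 0 and Kupffer cell markers 0 to 4 against 1.

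**Figure D1:**
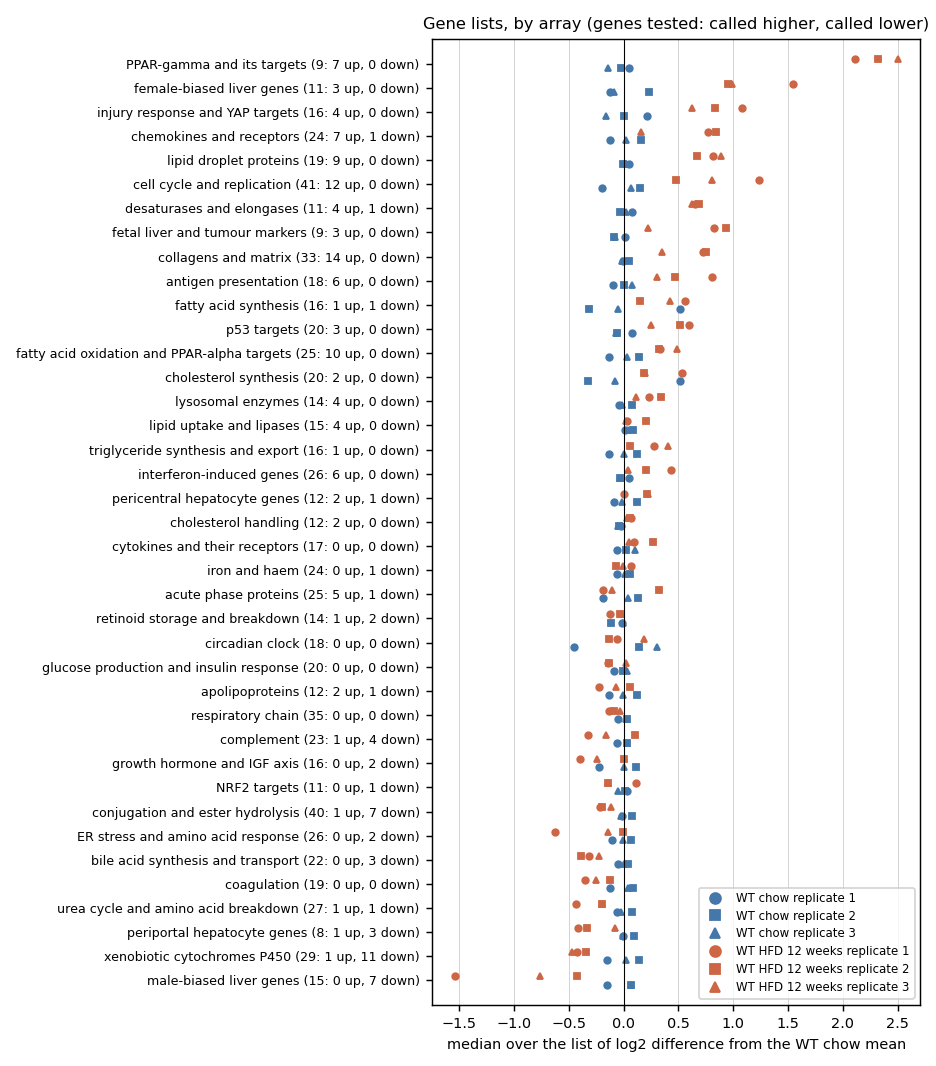
Median log2 difference from the WT chow mean over the tested members of each gene list, for each of the 3 WT chow arrays (blue) and the 3 WT HFD 12 weeks arrays (orange), with the marker shape giving the replicate and the counts of called members in parentheses. The PPAR-gamma list lies at 2.11 to 2.51 on the HFD arrays, and the male-biased list at -1.54 to -0.43 with HFD array 1 lowest.

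Many lipid droplet genes rose. Of 19 tested members 9 rose and 0 fell, with a median change of 0.82 (6 were called without HFD array 1). Cidea, which fuses droplets and is best known from brown fat, read 7.8, 2 and 3.3 on chow and 629.3, 757.9 and 1186.4 at 12 weeks. It thus went from near the floor of the array to a clear signal on every HFD array (6.83 ± 0.76, adjusted p = 3.9e-05). Its relative Cidec, which enlarges droplets, read 9.7, 7.8 and 6.6 on chow and 563.4, 338.1 and 549.9 at 12 weeks (5.4 ± 0.43, adjusted p = 5.9e-07). The third member of the family, Cideb, a hepatocyte gene that acts in lipoprotein lipidation, read 1047.4, 1233.5 and 1171.6 on chow and 1281.1, 1004.8 and 1452.2 at 12 weeks, a difference of 0.10 ± 0.13 that did not pass (adjusted p = 0.75).

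The perilipins, which coat droplets, differed in level and in change. Plin4 read 27.4, 39.1 and 33.7 on chow and 135.2, 219.2 and 209.8 at 12 weeks and rose by 2.36 ± 0.32 (adjusted p = 0.00023). Plin2, the usual perilipin of hepatocytes, read 2753.2, 2295.4 and 2575.5 on chow and 5880.5, 5101.4 and 5213.1 at 12 weeks and rose by 1.09 ± 0.14 (adjusted p = 0.00015). Plin3 and Plin5 differed by 0.45 ± 0.21 and 0.68 ± 0.37 without passing the test (adjusted p = 0.25 and 0.34). Of the factors that govern lipolysis, G0s2, the inhibitor of adipose triglyceride lipase, read 670.7, 473 and 339.8 on chow and 2740.0, 1774.8 and 2457.8 at 12 weeks and rose by 2.26 ± 0.42 (adjusted p = 0.0036). The lipase itself, Pnpla2, and its coactivator Abhd5 differed by -0.09 ± 0.18 and 0.05 ± 0.15, and neither passed (adjusted p = 0.84 and 0.9). Dimmer probe sets differed by 0.64 for Pnpla2 and by 0.40 and -0.60 for Abhd5. Mgll, which takes the last fatty acid off monoglycerides, rose by 1.05 ± 0.28. The droplet-budding genes Fitm1 and Fitm2 rose by 1.05 ± 0.23 and 0.82 ± 0.21, and the droplet enzyme gene Hsd17b13 by 0.52 ± 0.12, while another Hsd17b13 probe set differed by -0.34. Calls ended for Mgll without chow array 1 or 3 or HFD array 1 or 3 (adjusted p = 0.095 to 0.13), for Fitm2 without chow array 1 or 2 or HFD array 1 or 3 (adjusted p = 0.071 to 0.094) and for Hsd17b13 without chow array 2 or HFD array 1 (adjusted p = 0.083 to 0.09).

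**Figure D2:**
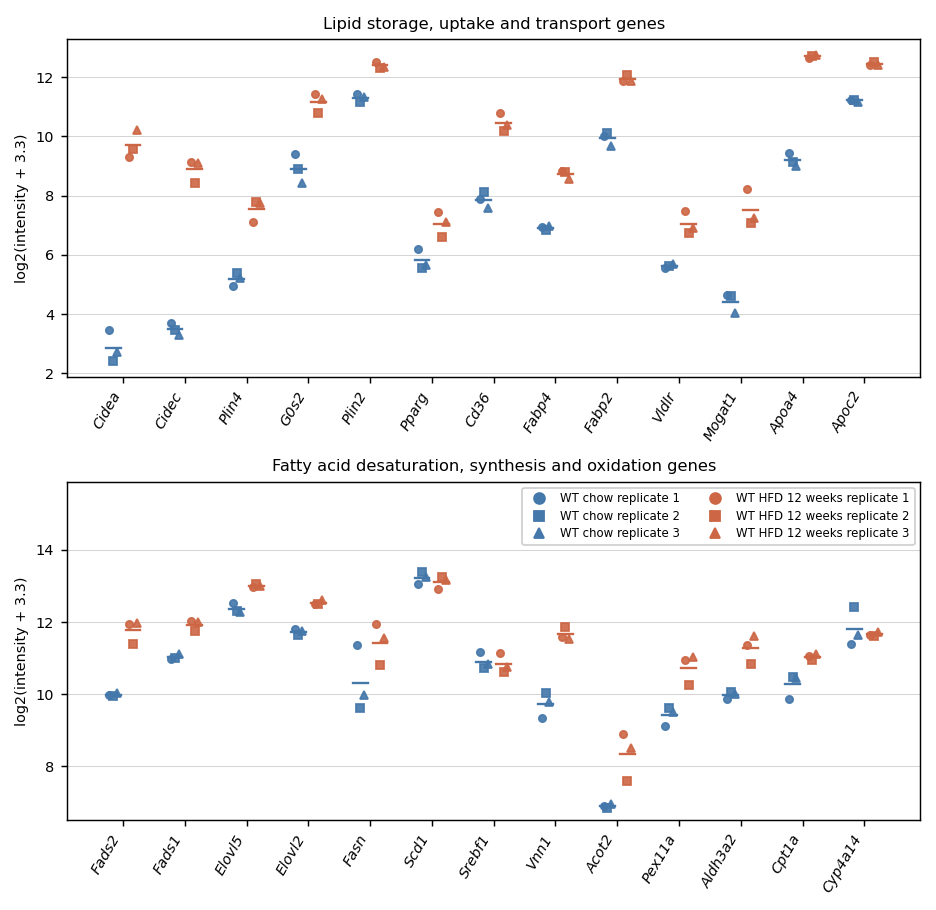
log2(intensity + 3.3) of genes of lipid handling on each WT chow (blue) and WT HFD 12 weeks (orange) array; shapes mark replicates and short lines the group means. Cidea and Cidec show the widest gaps, Apoa4 and Apoc2 lie close together within each diet, and Scd1, Srebf1 and Cyp4a14 overlap between the diets.

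PPAR-gamma itself rose together with most of its listed targets. Pparg read 71, 44.1 and 47.7 on chow and 172.1, 94 and 134.1 at 12 weeks and rose by 1.24 ± 0.25 (adjusted p = 0.0065), and its call ended without HFD array 1 (adjusted p = 0.054). Of 9 tested genes of this list 7 rose, with a median of 2.36; Cidea, Cidec and Plin4 are among them. Cd36, the fatty acid translocase of the cell surface, read 233.4, 274.9 and 189.5 on chow and 1752.4, 1162.8 and 1321.9 at 12 weeks (2.58 ± 0.35, adjusted p = 0.00024). Fabp4, a fatty acid carrier of adipocytes and macrophages, read 118.7, 110.4 and 121.8 on chow and 454.7, 445.7 and 370.3 at 12 weeks (1.82 ± 0.29, adjusted p = 0.001). A second, dimmer probe set of Fabp4 differed by -0.25. Mogat1, which joins fatty acids to monoglyceride on the way to triglyceride, read 21.9, 20.9 and 13 on chow and 294.4, 133 and 147 at 12 weeks (3.09 ± 0.38, adjusted p = 8.4e-05). Each of these targets was higher on all 3 HFD arrays than on any chow array. The 2 members without a call were Aqp7, a glycerol channel (1.14 ± 0.54), and Acaa1b, a peroxisomal thiolase (-0.07 ± 0.12). Retn, an adipocyte marker, read 5, 15.4 and 16 on chow and 8.7, 21.7 and 4.8 at 12 weeks, with overlapping groups.

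A few uptake and transport genes rose. In the list of lipid uptake and lipases 4 of 15 rose and none fell, and its median was 0.19. Besides Cd36 and Fabp4 these were Fabp2, the intestinal-type fatty acid carrier, and Vldlr, a receptor for triglyceride-rich particles. Fabp2 read 1037.6, 1103.3 and 816.5 on chow and 3739.6, 4300.0 and 3720.4 at 12 weeks (2.00 ± 0.11, adjusted p = 2.9e-09), and Vldlr read 43.3, 45.7 and 48.8 on chow and 177, 102.7 and 117.2 at 12 weeks (1.43 ± 0.17, adjusted p = 8.3e-05). The liver-type carrier Fabp1 differed by -0.09 ± 0.12 and the lipoprotein lipase gene Lpl by 0.19 ± 0.32, both with overlapping levels (adjusted p = 0.76 and 0.81). Among 12 apolipoproteins 2 rose and 1 fell, with a median of -0.08. Apoa4, a component of secreted lipid particles, read 695.9, 560.9 and 503.2 on chow and 6409.2, 6635.8 and 6889.8 at 12 weeks (3.51 ± 0.15, adjusted p = 4.2e-11), and Apoc2, the cofactor of lipoprotein lipase, read 2390.5, 2412.9 and 2288.6 on chow and 5469.3, 5752.5 and 5444.5 at 12 weeks (1.23 ± 0.10, adjusted p = 1.2e-06). For both genes the spread within each diet was small beside the gap between the diets. Apom, a carrier of sphingosine phosphate on high-density lipoprotein, fell by 0.66 ± 0.14 (adjusted p = 0.0089), a call that ended without HFD array 1 (adjusted p = 0.067). Apob, Apoe and Apoc3 differed by -0.06 ± 0.13, -0.14 ± 0.11 and -0.10 ± 0.11, none past the test.

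Of 11 desaturases and elongases 4 rose and 1 fell. Fads2, a desaturase of long polyunsaturated chains, read 998.1, 987.7 and 1055.8 on chow and 3937.4, 2707.1 and 3986.2 at 12 weeks (1.78 ± 0.14, adjusted p = 5.9e-07). Its partner Fads1 read 2030.6, 2047.8 and 2206.3 on chow and 4211.5, 3424.1 and 4124.7 at 12 weeks (0.90 ± 0.13, adjusted p = 0.00039). The elongases of the same route, Elovl5 and Elovl2, rose by 0.63 ± 0.10 and 0.81 ± 0.13 (adjusted p = 0.0011 and 0.0013). Elovl3, a male-biased elongase, fell from 3418.1, 1904.1 and 1501.3 to 398.5, 1243 and 1105.7 (-1.38 ± 0.39, adjusted p = 0.048), and the fall ended without chow array 1 or 2 or HFD array 1 (adjusted p = 0.099 to 0.26). In all 4 of 11 members rose and 1 fell, with a median of 0.74.

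Of 16 genes of fatty acid synthesis 1 rose, 1 fell and the median was 0.49. The chow arrays of this list were themselves spread from -0.32 to 0.51 in their median, with chow array 1 high. Acacb, the acetyl-CoA carboxylase of the mitochondrial surface, rose by 1.23 ± 0.26 (adjusted p = 0.0072), a call that ended without chow array 2 or HFD array 1 (adjusted p = 0.054 to 0.056). Mlxipl, which encodes the carbohydrate-responsive factor ChREBP, read 1255.4, 1165 and 1312.1 on chow and 581.2, 661.6 and 790.2 at 12 weeks and fell by 0.88 ± 0.17 (adjusted p = 0.005). Fasn, the fatty acid synthase, read 2651.1, 778.8 and 1008.8 on chow and 3954.8, 1781.7 and 2992.9 at 12 weeks; the groups overlapped and the difference of 1.11 ± 0.35 did not pass (adjusted p = 0.078). The stearoyl-CoA desaturase gene Scd1 differed by -0.12 ± 0.12 (adjusted p = 0.66) and the lipogenic regulator Srebf1 by -0.08 ± 0.24 (adjusted p = 0.91). A dimmer Scd1 probe set differed by 0.93. In the list of triglyceride synthesis and export 1 of 16 rose, Mogat1 again, and the median was 0.18. Dgat1 and Dgat2, which make triglyceride by the last step, differed by -0.17 ± 0.14 and -0.16 ± 0.16, and Mttp, which loads lipid on apolipoprotein B, by 0.38 ± 0.12 (adjusted p = 0.06).

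Oxidation genes rose in part. In the list of fatty acid oxidation and PPAR-alpha targets 10 of 25 rose and none fell, with a median of 0.34, and 10 were called without HFD array 1. Vnn1, the pantetheinase vanin, read 645.4, 1054.8 and 886.2 on chow and 3079.3, 3744.9 and 2954.7 at 12 weeks (1.94 ± 0.35, adjusted p = 0.0028). Acot2, a mitochondrial thioesterase, read 116, 112.6 and 122.4 on chow and 469.9, 191.2 and 361.9 at 12 weeks (1.42 ± 0.26, adjusted p = 0.0027); its close copy Acot1 makes its probe set uncertain. Pex11a, which divides peroxisomes, Aldh3a2, a fatty aldehyde dehydrogenase, and Crat, the carnitine acetyltransferase, rose by 1.32 ± 0.28, 1.3 ± 0.18 and 1.18 ± 0.19 (adjusted p = 0.0078, 0.00031 and 0.0011). The hormone gene Fgf21 read 26.7, 23 and 19.6 on chow and 123.3, 61.2 and 73.9 at 12 weeks (1.71 ± 0.24, adjusted p = 0.00028). Cpt1a, the gate of fatty acids into mitochondria, read 936.3, 1430.7 and 1409.4 on chow and 2149.4, 1957.9 and 2231.5 at 12 weeks and rose by 0.77 ± 0.17 (adjusted p = 0.0092). Cyp4a14, a microsomal omega-hydroxylase widely used as a readout of PPAR-alpha, read 2664.7, 5464.9 and 3174.7 on chow and 3176.2, 3157.9 and 3383 at 12 weeks, with overlapping groups (-0.15 ± 0.22, adjusted p = 0.78). Ehhadh, an enzyme of peroxisomal oxidation, and Ppara differed by 0.06 ± 0.17 and 0.34 ± 0.19, neither past the test.

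Few sterol genes passed the test. Of 20 genes of cholesterol synthesis 2 rose and none fell, with a median of 0.28. These were Hsd17b7, which acts on sterol intermediates (0.92 ± 0.19, adjusted p = 0.0067), and Mvd of the mevalonate route (0.91 ± 0.25, adjusted p = 0.042). Both calls ended when an array was removed, for Hsd17b7 without HFD array 1 (adjusted p = 0.05) and for Mvd without chow array 2 or 3 or HFD array 1 (adjusted p = 0.18 to 0.23). Chow array 1 was again high, with a list median of 0.51 against -0.32 and -0.08 on the other chow arrays. Hmgcs1, Sqle and Cyp51, which take earlier and later steps, differed by 0.61 ± 0.25, 0.49 ± 0.46 and 0.24 ± 0.23, none past the test. In cholesterol handling 2 of 12 rose: Lipa, the acid lipase of lysosomes, read 730.4, 498.4 and 538.2 on chow and 1145.8, 1273 and 1144.1 at 12 weeks (1.03 ± 0.14, adjusted p = 0.00027), and Npc2, which moves cholesterol out of lysosomes, rose by 0.43 ± 0.12. The latter call ended without chow array 1, 2 or 3 or HFD array 1 or 2 (adjusted p = 0.067 to 0.2).

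Many drug-metabolizing genes of hepatocytes fell. Of 29 xenobiotic cytochromes P450 and their regulators 11 fell and 1 rose, with a median of -0.45. Without HFD array 1 the calls numbered 9. Cyp2c54 read 3343, 4538.6 and 3966.6 on chow and 80.0, 930.0 and 617.6 at 12 weeks and fell by 3.43 ± 0.65 (adjusted p = 0.0038). HFD array 1 was far below the other HFD arrays there, and all 3 were below every chow array. Cyp1a2, which oxidizes caffeine and many drugs, read 4167.9, 5435.2 and 5217.1 on chow and 1187.4, 2255.7 and 1860.2 at 12 weeks (-1.52 ± 0.19, adjusted p = 0.00011). Cyp2c70, which makes muricholic acids, read 4137.5, 5589.8 and 5380.9 on chow and 1446.3, 2034.1 and 1792.3 at 12 weeks (-1.52 ± 0.24, adjusted p = 0.00091). Cyp2c55 and Cyp2c23 changed by -1.67 ± 0.23 and -1.49 ± 0.20 (adjusted p = 0.00023 and 0.00024). Near-identical copies make the identity of single Cyp2c probe sets uncertain. Cyp2e1, the ethanol-oxidizing P450, and Cyp3a11, a major drug-oxidizing P450, differed by -0.15 ± 0.11 and -0.31 ± 0.10 without a call (adjusted p = 0.51 and 0.077). The only P450 in the list to rise was Cyp2b9, whose call ended without chow array 1 (adjusted p = 0.053).

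Conjugation and ester hydrolysis followed with 7 of 40 genes lower and 1 higher and a median of -0.21. The calls numbered 6, 4 and 5 without chow array 1, 2 and 3 and 4, 9 and 6 without HFD array 1, 2 and 3, and 4 with only the compared groups fitted and 5 without the variance trend. The carboxylesterase gene Ces2a read 3047.9, 3645.8 and 3352.6 on chow and 508.1, 656.7 and 891.8 at 12 weeks (-2.32 ± 0.23, adjusted p = 8.0e-06). Ugt2b38, a glucuronosyltransferase, read 346.5, 372.6 and 423.5 on chow and 23.4, 95.2 and 79.8 at 12 weeks (-2.67 ± 0.36, adjusted p = 0.00022), and Ugt2b35 of the same family fell by 0.81 ± 0.16 (adjusted p = 0.0051). Gsta2, a glutathione transferase, read 3396.4, 3265 and 2902.9 on chow and 1137.8, 549 and 1189 at 12 weeks (-1.81 ± 0.33, adjusted p = 0.0031). On every HFD array these 4 genes lay below every chow array. Mgst3, a membrane-bound glutathione transferase, was the member that rose (0.62 ± 0.18, adjusted p = 0.049), and its call ended without chow array 1, 2 or 3 or HFD array 1 or 3 (adjusted p = 0.053 to 0.25). Of 11 NRF2 targets, the genes of the oxidative stress response, Gclm alone was called: it fell by 0.44 ± 0.10 (adjusted p = 0.011), and the call ended without chow array 2 (adjusted p = 0.061). The NRF2 target Nqo1 and the haem oxygenase gene Hmox1 differed by 0.34 ± 0.21 and 0.71 ± 0.43, neither past the test.

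**Figure D3:**
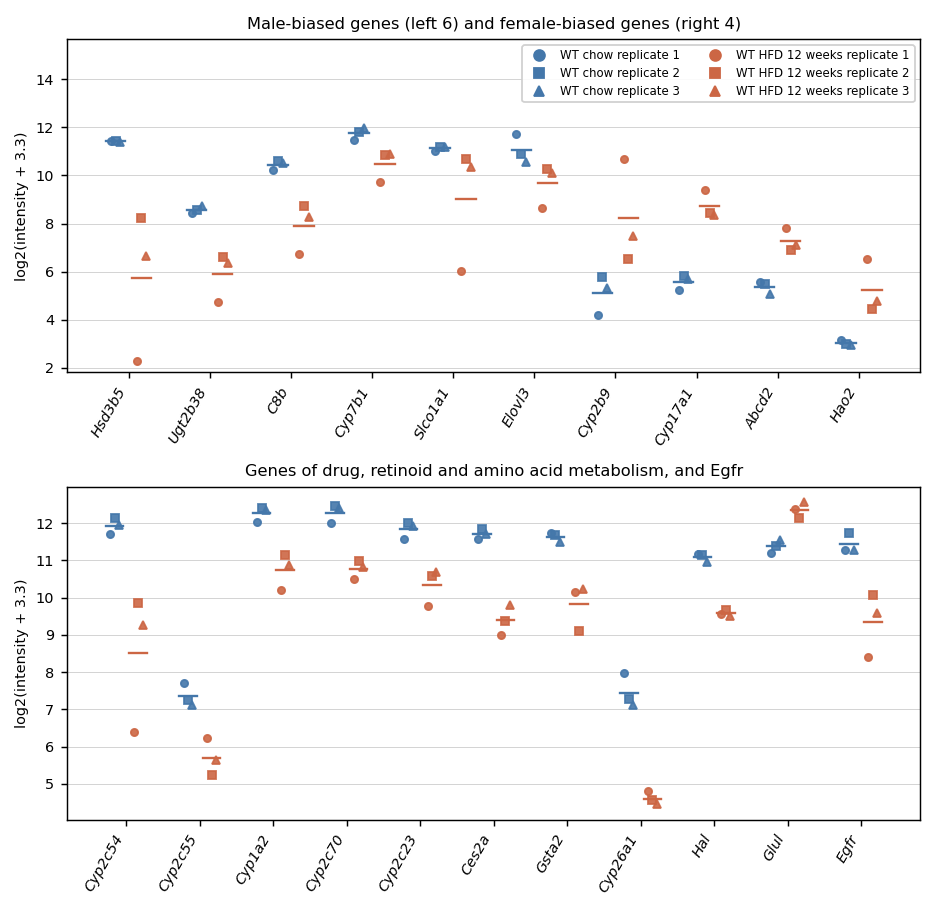
log2(intensity + 3.3) of sex-biased genes (top) and of metabolic genes and Egfr (bottom) on each WT chow (blue) and WT HFD 12 weeks (orange) array; shapes mark replicates and short lines the group means. HFD array 1 (circles) is lowest for Hsd3b5, C8b and Cyp2c54 and highest for Cyp2b9.

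Sex-biased liver genes, which growth hormone pulses keep apart in male and female mice, fell where male-biased and rose where female-biased, as far as they were called. Of 15 male-biased genes 7 fell and none rose, and all 15 differences were below 0 (median -1.14). Of 11 female-biased genes 3 rose and none fell (median 1.17). Calls of male-biased genes numbered 6, 4 and 5 without chow array 1, 2 and 3 and 5, 7 and 6 without HFD array 1, 2 and 3, and 4 with only the compared groups fitted or without the variance trend. Those of female-biased genes numbered 2 to 4 with 1 array left out. Hsd3b5, a male-specific steroid dehydrogenase, read 2787.3, 2795.7 and 2660.1 on chow and 1.6, 293.8 and 97.2 at 12 weeks and fell by 5.71 ± 0.88 (adjusted p = 0.00071). Its level on HFD array 1 was at the floor of the array, and its close copies make the probe set uncertain. C8b, a complement gene with higher levels in males, read 1188.1, 1542 and 1455.6 on chow and 103.4, 424.3 and 303.5 at 12 weeks (-2.53 ± 0.31, adjusted p = 9.8e-05), and Cyp7b1, an oxysterol hydroxylase, read 2832.8, 3611.5 and 4037.1 on chow and 850.3, 1836.2 and 1921.8 at 12 weeks (-1.26 ± 0.25, adjusted p = 0.0057). The transporter gene Slco1a1 read 2086.5, 2322.4 and 2325.3 on chow and 61.5, 1663.3 and 1322.8 at 12 weeks, with HFD values far apart, and the difference of -2.10 ± 0.97 did not pass (adjusted p = 0.24).

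Among the female-biased genes, Cyp2b9 read 15, 50.8 and 36.8 on chow and 1651.4, 89.8 and 176.1 at 12 weeks, so HFD array 1 lay far above the other HFD arrays (3.15 ± 0.70, adjusted p = 0.012). Its call ended without chow array 1 (adjusted p = 0.053). Cyp17a1, a steroid hydroxylase, read 33.9, 52.7 and 48.7 on chow and 661.8, 342.4 and 322.3 at 12 weeks (3.14 ± 0.43, adjusted p = 0.00023). Abcd2, a peroxisomal fatty acid importer, rose by 1.90 ± 0.45 (adjusted p = 0.017), a call that ended without chow array 2 or 3 or HFD array 1 (adjusted p = 0.053 to 0.11). Male-biased calls ended for Ugt2b1 without chow array 2 or 3 or HFD array 1 (adjusted p = 0.078 to 0.13), for Cspg5 without chow array 2 or 3 or HFD array 2 or 3 (adjusted p = 0.086 to 0.15) and for Elovl3 without chow array 1 or 2 or HFD array 1 (adjusted p = 0.099 to 0.26). In the growth hormone and IGF axis 2 of 16 genes fell and none rose. Igfals, the partner of circulating IGF-I, and Hnf4a, the hepatocyte master regulator, fell by 1.07 ± 0.30 and 0.45 ± 0.12, and the calls ended for Igfals without chow array 1, 2 or 3 or HFD array 1, 2 or 3 (adjusted p = 0.054 to 0.2) and for Hnf4a without chow array 2 or 3 or HFD array 1 (adjusted p = 0.12 to 0.21). Another probe set of Hnf4a differed by 0.27. Igf1, Ghr and Stat5b, the hormone, the receptor and its signal transducer, differed by -0.39 ± 0.15, -0.19 ± 0.11 and -0.12 ± 0.19, none past the test. Socs2 and Cish, which growth hormone induces, differed by -1.26 ± 0.77 and -0.77 ± 0.47 with wide errors.

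Bile acid genes were lower where they were called. Of 22 members 3 fell and none rose, 20 differences were below 0, and the median was -0.29 (calls numbered 1 to 4 with 1 array left out). Besides Cyp7b1, the oxysterol hydroxylase, these were Abcb11, the bile salt export pump, which read 3133.9, 2963.3 and 2824.6 on chow and 1544.1, 1576.2 and 1844.8 at 12 weeks (-0.85 ± 0.18, adjusted p = 0.0092), and Klb, the coreceptor of FGF signals (-0.72 ± 0.18, adjusted p = 0.022). Their calls ended for Abcb11 without HFD array 1 (adjusted p = 0.052) and for Klb without chow array 2 or 3 or HFD array 1 or 3 (adjusted p = 0.064 to 0.12). Cyp8b1, which sets the share of cholic acid, differed by 1.01 ± 0.35 and Slc10a1, the uptake transporter of bile salts, by -0.26 ± 0.24, neither past the test.

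Retinoid, amino acid and zonation genes held a few large single changes. Cyp26a1, which breaks down retinoic acid, read 247.6, 150.8 and 134.2 on chow and 24.5, 20.4 and 18.5 at 12 weeks (-2.84 ± 0.32, adjusted p = 4.0e-05). Rdh16, a retinol dehydrogenase, rose by 0.91 ± 0.16 (adjusted p = 0.0028), and Adh4, an alcohol dehydrogenase, fell by 0.65 ± 0.18, a call that ended without chow array 1, 2 or 3 or HFD array 1, 2 or 3 (adjusted p = 0.07 to 0.16). These are the 1 higher and 2 lower of 14 retinoid genes. Of 27 genes of the urea cycle and amino acid breakdown Hal, the histidine ammonia-lyase, fell from 2301.9, 2280.9 and 1969.2 to 757.3, 814.3 and 727.8 (-1.5 ± 0.28, adjusted p = 0.0035). Glul, the glutamine synthetase, rose from 2340.5, 2661.4 and 3016.4 to 5281.2, 4532.3 and 6098.9 (0.98 ± 0.22, adjusted p = 0.013), and its call ended without HFD array 1 or 3 (adjusted p = 0.052 to 0.056). No other member of that list was called, while 23 of 27 differences were below 0 and the median was -0.34. Glul marks the hepatocytes around the central vein and Hal those around the portal tract, but the lists did not split cleanly. Of 12 pericentral genes 2 rose and 1 fell (Glul and Lect2, and Cyp1a2), and of 8 periportal genes 1 rose and 3 fell (Hsd17b13, whose probe sets differ in sign, and Cdh1, Hal and Cyp2f2). Cdh1, the E-cadherin gene, read 785.8, 597.7 and 565 on chow and 227.2, 250.1 and 171 at 12 weeks (-1.57 ± 0.39, adjusted p = 0.021). Calls ended for Lect2 without chow array 1, 2 or 3 or HFD array 1, 2 or 3 (adjusted p = 0.055 to 0.094), for Hsd17b13 without chow array 2 or HFD array 1 (adjusted p = 0.083 to 0.09) and for Cdh1 without chow array 1 or 2 or HFD array 1 or 3 (adjusted p = 0.061 to 0.078).

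Cth, which makes cysteine, and Ern1, a sensor of unfolded protein, were the 2 of 26 genes of ER stress and the amino acid response to fall, by 0.86 ± 0.14 and 0.76 ± 0.16 (adjusted p = 0.0014 and 0.0077). The second call ended without HFD array 1 (adjusted p = 0.06), and another of its probe sets differed by 0.12. The chaperone gene Hspa5 and the factor genes Atf4 and Xbp1 differed by -0.25 ± 0.16, -0.58 ± 0.17 and -0.39 ± 0.13 without a call. In the iron and haem list 1 of 24 fell, Bmp6, a signal for hepcidin, which read 25.7, 22.1 and 32.6 on chow and 16, 9 and 10.2 at 12 weeks and fell by 1.01 ± 0.29. It lost its call without chow array 1, 2 or 3 or HFD array 1, 2 or 3 (adjusted p = 0.056 to 0.18). Hepcidin itself (Hamp) differed by -0.37 ± 0.31 (adjusted p = 0.58).

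Secreted defence proteins went both ways. Of 25 acute phase genes 5 rose and 1 fell, with a median of -0.02. Lcn2, which binds bacterial iron carriers, read 50.5, 25.5 and 27.1 on chow and 769.9, 716.4 and 221.6 at 12 weeks (3.79 ± 0.40, adjusted p = 2.1e-05). The serum amyloid gene Saa2 read 110.9, 125.3 and 146.9 on chow and 1790.3, 1776.3 and 739.5 at 12 weeks (3.36 ± 0.42, adjusted p = 0.00011). Saa1, a near-identical copy that may share its signal, read 840.8, 601.5 and 736.7 on chow and 3767.6, 4568.4 and 2264.6 at 12 weeks (2.23 ± 0.30, adjusted p = 0.00023). Orm2, an orosomucoid, read 86.6, 164.4 and 198.2 on chow and 748.5, 493.5 and 315 at 12 weeks (1.76 ± 0.35, adjusted p = 0.0057). HFD array 3 was the lowest HFD array for these 4 genes, and still above every chow array. Orm3 rose by 1.56 ± 0.42 and Itih3, an inter-alpha-trypsin inhibitor, fell by 0.52 ± 0.14, and both calls ended for Orm3 without chow array 1 or 2 or HFD array 1 or 2 (adjusted p = 0.078 to 0.15) and for Itih3 without chow array 2 or 3 or HFD array 1 or 3 (adjusted p = 0.12 to 0.17). Crp, the C-reactive protein gene, Fgg, a fibrinogen chain, and Orm1 differed by -0.19 ± 0.11, -0.22 ± 0.10 and -0.09 ± 0.11, none past the test.

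Of 23 complement genes 1 rose, 4 fell and 18 were not called, and the median was -0.11. C8b is given above. C2, which forms the classical convertase, read 572.4, 617.4 and 738.8 on chow and 290.8, 454.4 and 284.9 at 12 weeks (-0.92 ± 0.16, adjusted p = 0.002), and Masp1, a lectin pathway protease, fell by 0.76 ± 0.15 (adjusted p = 0.0043), while 2 dimmer probe sets of Masp1 differed by 0.16 and 0.11. Mbl1, a mannose-binding lectin, fell by 0.43 ± 0.12. C1qb, a chain of C1q, read 243.4, 231.5 and 230.3 on chow and 479.3, 444.1 and 308.8 at 12 weeks (0.77 ± 0.17, adjusted p = 0.0092). Calls ended for Mbl1 without chow array 1, 2 or 3 or HFD array 1 or 3 (adjusted p = 0.069 to 0.21) and for C1qb without HFD array 1 (adjusted p = 0.069). None of 19 coagulation genes was called by limma, although 11 were lower and 1 higher at an unadjusted p under 0.05 and the median was -0.32. F11 and Serpinf2, coagulation factor XI and antiplasmin, differed by -1.10 ± 0.34 and -0.73 ± 0.22 (adjusted p = 0.07 and 0.061).

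Several chemokine and macrophage genes rose. Of 24 chemokines and receptors 7 rose and 1 fell (median 0.86). The calls numbered 5, 5 and 4 without chow array 1, 2 and 3 and 3, 7 and 9 without HFD array 1, 2 and 3. Ccr2, the receptor that brings monocytes into tissue, read 6.5, 21.8 and 10.8 on chow and 75.7, 64.9 and 30.2 at 12 weeks (1.90 ± 0.36, adjusted p = 0.0043). Ccl6 and Cxcl16, a macrophage chemokine and a membrane-bound one, rose by 1.05 ± 0.18 and 0.81 ± 0.17 (adjusted p = 0.002 and 0.0092). The ligand of Ccr2, Ccl2, read 1.1, 2 and 1.3 on chow and 26.5, 15.1 and 1.1 at 12 weeks (1.5 ± 0.57, adjusted p = 0.14). Its HFD values were spread and did not give a call. Cxcl9 and Cxcl10, interferon-induced ligands, rose by 1.33 ± 0.31 and 1.01 ± 0.26, Ccl5 by 1.33 ± 0.33 and the receptor gene Cx3cr1 by 1.64 ± 0.41, and Ccl9 fell by 0.60 ± 0.16. These calls were lost for Cxcl9 without chow array 1 or 2 or HFD array 1 (adjusted p = 0.051 to 0.08), for Cxcl10 without chow array 2 or 3 or HFD array 1 (adjusted p = 0.058 to 0.18), for Ccl5 without chow array 3 or HFD array 1 or 3 (adjusted p = 0.065 to 0.12), for Cx3cr1 without chow array 1 or 3 or HFD array 1 or 3 (adjusted p = 0.067 to 0.12) and for Ccl9 without chow array 1, 2 or 3 or HFD array 1, 2 or 3 (adjusted p = 0.051 to 0.14).

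Markers of recruited macrophages rose in 9 of 18 members, with a median of 0.88. This list also holds general myeloid genes such as Tyrobp, so it does not separate recruited from resident macrophages. The calls numbered 9, 7 and 8 without chow array 1, 2 and 3 and 5, 10 and 9 without HFD array 1, 2 and 3. Their summed intensity was 1131.8 to 1313.3 on chow and 1780.3 to 3118.6 on HFD, highest on HFD array 1. Mmp12, the macrophage elastase, read 5.1, 3.3 and 1.1 on chow, near the floor of the array, and 99.4, 16.4 and 37.9 at 12 weeks (2.81 ± 0.43, adjusted p = 0.00068). Clec7a, the beta-glucan receptor, read 75.2, 90.2 and 92.1 on chow and 436.6, 262.1 and 175.3 at 12 weeks (1.63 ± 0.27, adjusted p = 0.0014), and Tyrobp, an adaptor of myeloid receptors, read 177, 188.9 and 166.6 on chow and 442.4, 335 and 279.5 at 12 weeks (0.95 ± 0.18, adjusted p = 0.0044). For all 3 genes every HFD array was above every chow array. Lgals3, a galectin of activated macrophages, read 70.0, 66.5 and 72.1 on chow and 476.1, 151.5 and 209.5 at 12 weeks (1.78 ± 0.37, adjusted p = 0.0074), and lost its call without HFD array 1 (adjusted p = 0.056). Trem2 and Gpnmb, markers of lipid-associated macrophages, differed by -0.51 ± 0.46 and 1.64 ± 0.59, neither past the test. A dimmer Trem2 probe set differed by 0.585.

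Resident macrophage markers gave a single call. Of 12 Kupffer cell markers 1 rose, C1qb, whose call ended without HFD array 1 (adjusted p = 0.069), and none fell. The median was 0.37, with 11 of the 12 differences above 0 and 4 genes higher at an unadjusted p under 0.05 in limma. The summed intensity of the 12 markers was 4104.7 to 4150.6 on chow and 4320.3 to 6381.9 on HFD. Clec4f, Vsig4 and Timd4 differed by 0.18 ± 0.17, 0.21 ± 0.25 and -0.27 ± 0.36, none past the test. Timd4 was the only member below 0. No marker of neutrophils (10 tested), T and NK cells (14), B and plasma cells (6), dendritic cells (6), cholangiocytes (5) or red cells (4) was called by limma. At an unadjusted p under 0.05 these lists held 2, 2, 1, 0, 0 and 1 genes, against 2849 of all 14691 genes tested. The smallest p in each was that of Ltf (1.17 ± 0.45, adjusted p = 0.14), Gzmk (1.13 ± 0.36, adjusted p = 0.077), Ighm (0.92 ± 0.40, adjusted p = 0.21), Zbtb46 (0.36 ± 0.18, adjusted p = 0.31), Prom1 (1.02 ± 0.63, adjusted p = 0.41) and Alas2 (-0.60 ± 0.24, adjusted p = 0.17). HFD array 2 had the highest sum of neutrophil markers, 425.5 against 155.9 to 248.8 on the other 5 arrays. Whether any of these cell types takes part in the changes above was not tested.

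**Figure D4:**
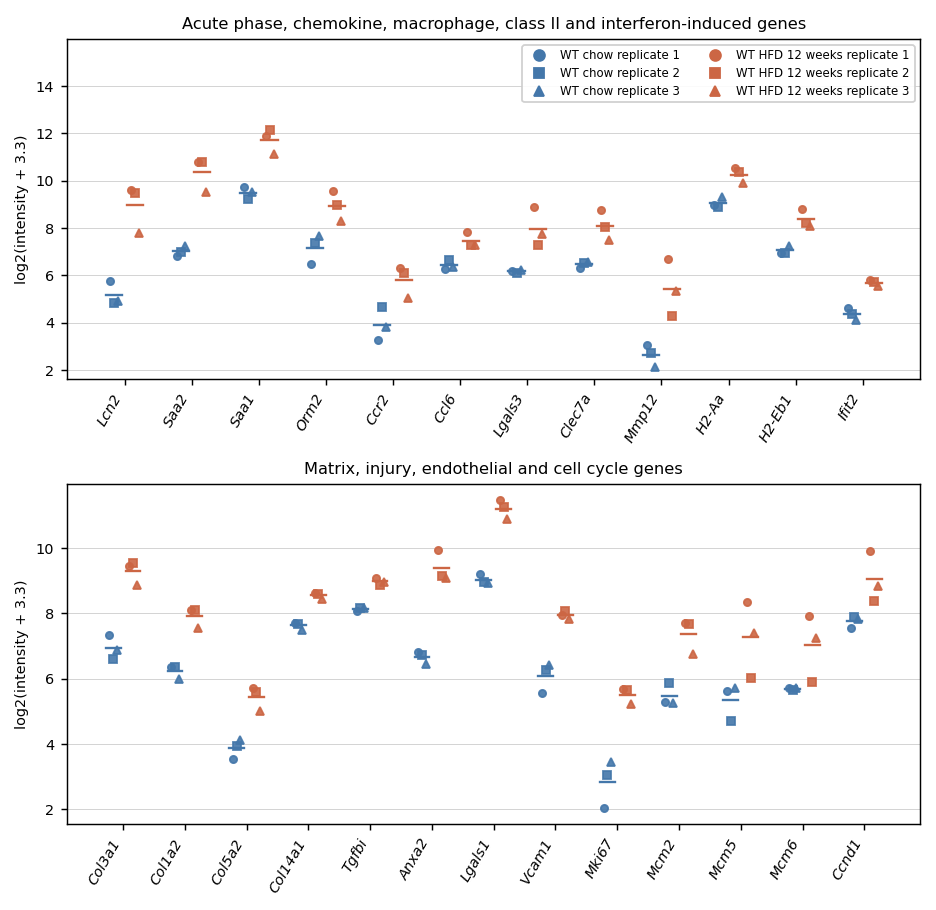
log2(intensity + 3.3) of immune genes (top) and of matrix, injury, endothelial and cell cycle genes (bottom) on each WT chow (blue) and WT HFD 12 weeks (orange) array; shapes mark replicates and short lines the group means. The collagen genes and Anxa2 separate the diets on every array, while Mcm5 and Mcm6 are highest on HFD array 1 and lowest on HFD array 2 among the HFD arrays.

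Antigen presentation genes rose in 6 of 18 members and fell in none, with a median of 0.51. The count was 4, 2 and 4 without chow array 1, 2 and 3 and 1, 4 and 6 without HFD array 1, 2 and 3, and 3 without the variance trend. The class II chain H2-Aa read 505.3, 470.6 and 634.3 on chow and 1463.3, 1313.7 and 949 at 12 weeks (1.19 ± 0.30, adjusted p = 0.023). The class II chain H2-Eb1 read 121.2, 121.9 and 149.9 on chow and 439.9, 298.1 and 269.1 at 12 weeks (1.31 ± 0.30, adjusted p = 0.014). H2-Ab1 rose by 0.96 ± 0.23 and Cd74, the invariant chain that escorts class II, by 0.66 ± 0.17. Of the peptide supply to class I, Tap1, the peptide transporter, read 63.2, 66.8 and 49.2 on chow and 116.6, 102.5 and 98.1 at 12 weeks (0.80 ± 0.14, adjusted p = 0.0024), and Psmb9, a subunit of the immunoproteasome, rose by 1.01 ± 0.21. The class I genes H2-K1, H2-D1 and B2m differed by 0.19 ± 0.09, 0.30 ± 0.13 and 0.00 ± 0.09, none past the test. The class II regulator Ciita differed by 0.49 ± 0.30. Apart from Tap1 calls ended for H2-Aa without chow array 1 or 2 or HFD array 1 or 2 (adjusted p = 0.061 to 0.12), for H2-Eb1 without chow array 2 or HFD array 1 (adjusted p = 0.061 to 0.096), for H2-Ab1 without chow array 2 or 3 or HFD array 1 (adjusted p = 0.073 to 0.13), for Cd74 without chow array 1, 2 or 3 or HFD array 1 or 2 (adjusted p = 0.054 to 0.15) and for Psmb9 without HFD array 1 (adjusted p = 0.053).

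Class II and interferon-induced genes carry known promoter elements, searched here over the antigen presentation and interferon-induced lists. They are shown for members that rose and have the element upstream of their start. The table of promoters (RefSeq, GRCm38.p6, 250 bases before to 50 after the start) held 12 of the 18 antigen presentation genes. The Y box CTGATTGG, searched on both strands, was found in 6 of these 12 promoters against 4.7% of all 27025 genes with a promoter in the table. The 4 genes of the 12 that rose all carried it, namely H2-Aa and H2-Eb1 of class II and Tap1 and Psmb9 of the class I peptide supply. Tap1 and Psmb9 start from the same stretch on opposite strands and share 1 match. The interferon element, GAAA and GAAA with any 2 bases between them, was in 12 of 20 promoters of interferon-induced genes against 3.99% of all, and in 2 of the 4 that rose and have a promoter in the table. The motifs were chosen after the values were seen, and a match describes letters only. The lists hold genes known for these elements, so the shares follow from the choice of list and say nothing of the diet. Matches are in capitals in the sequences of H2-Aa (chr17:34287832-34287909, minus strand), H2-Eb1 (chr17:34305770-34305847, plus strand), Tap1 (chr17:34187306-34187376, plus strand), Oas1a (chr5:120907526-120907580, minus strand) and Rsad2 (chr12:26456528-26456607, minus strand), whose matches begin 51, 62, 222, 20 and 120 bases before the start.
H2-Aa: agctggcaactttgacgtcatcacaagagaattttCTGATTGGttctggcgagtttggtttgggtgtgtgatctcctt
H2-Eb1: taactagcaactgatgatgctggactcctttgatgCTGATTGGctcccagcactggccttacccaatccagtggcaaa
Tap1: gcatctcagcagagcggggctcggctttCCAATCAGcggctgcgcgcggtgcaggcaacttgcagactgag
Oas1a: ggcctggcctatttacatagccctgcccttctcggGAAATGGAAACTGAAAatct
Rsad2: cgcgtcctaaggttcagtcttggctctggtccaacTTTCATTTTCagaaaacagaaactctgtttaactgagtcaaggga
In Oas1a the capitals are 2 overlapping matches. In Rsad2 and Tap1 the capitals are the reverse complement. Calls of these genes ended for H2-Aa without chow array 1 or 2 or HFD array 1 or 2 (adjusted p = 0.061 to 0.12), for H2-Eb1 without chow array 2 or HFD array 1 (adjusted p = 0.061 to 0.096), for Psmb9 without HFD array 1 (adjusted p = 0.053), for Oas1a without chow array 1 or HFD array 1 (adjusted p = 0.082 to 0.12) and for Rsad2 without chow array 2 or 3 or HFD array 1 or 2 (adjusted p = 0.14 to 0.22).

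Interferon-induced genes rose in 6 of 26 members and fell in none, and the median was 0.15. The count was 5, 3 and 3 without chow array 1, 2 and 3 and 2, 5 and 6 without HFD array 1, 2 and 3, and 2 with only the compared groups fitted. Ifit2, an antiviral RNA-binding protein, read 21.5, 17.2 and 13.9 on chow and 52.6, 49.2 and 43.6 at 12 weeks (1.32 ± 0.22, adjusted p = 0.0012), and Ifi27l2a read 57, 67.9 and 64.5 on chow and 212.1, 195.8 and 102.5 at 12 weeks (1.32 ± 0.26, adjusted p = 0.0048). Both were higher on all HFD arrays than on any chow array. The oligoadenylate synthetase genes Oas2, Oasl2 and Oas1a rose by 1.07 ± 0.28, 0.95 ± 0.22 and 0.93 ± 0.22 and the antiviral gene Rsad2 by 0.67 ± 0.19, with calls that ended for Oas2 without chow array 2 or 3 or HFD array 1, 2 or 3 (adjusted p = 0.058 to 0.17), for Oasl2 without chow array 2 or 3 or HFD array 1 (adjusted p = 0.057 to 0.096), for Oas1a without chow array 1 or HFD array 1 (adjusted p = 0.082 to 0.12) and for Rsad2 without chow array 2 or 3 or HFD array 1 or 2 (adjusted p = 0.14 to 0.22). Irf7 and Ifit1, typical of a type I interferon response, differed by -0.20 ± 0.21 and 0.33 ± 0.24 (adjusted p = 0.68 and 0.51). Of 17 cytokines and receptors none was called by limma, and 2 passed an unadjusted p under 0.05. The smallest p was that of Osm, oncostatin M (-1.06 ± 0.49, adjusted p = 0.25); Il1b differed by -0.17 ± 0.37 and Tgfb1 by 0.28 ± 0.39.

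Of 14 lysosomal genes 4 rose and none fell, with a median of 0.22. Besides Lipa these were Hexa, a hexosaminidase (0.60 ± 0.11, adjusted p = 0.0023), Gusb, the beta-glucuronidase (0.50 ± 0.11, adjusted p = 0.01), and Ctsd, cathepsin D (0.47 ± 0.11, adjusted p = 0.017). Calls ended for Gusb without HFD array 1 (adjusted p = 0.083) and for Ctsd without chow array 1 or HFD array 1 (adjusted p = 0.066 to 0.12).

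Matrix genes rose in 14 of 33 members and fell in none, with a median of 0.59. The count was 12, 12 and 10 without chow array 1, 2 and 3 and 9, 11 and 14 without HFD array 1, 2 and 3, and 8 with a gene's probe sets averaged. Col3a1, the fibrillar collagen that rises early in scarring, read 158.4, 94.1 and 114.7 on chow and 699.8, 739.9 and 462.3 at 12 weeks (2.34 ± 0.25, adjusted p = 2.9e-05). Col1a2, a chain of type I collagen, read 79.4, 78.9 and 60.6 on chow and 269.8, 271.2 and 183.1 at 12 weeks (1.67 ± 0.19, adjusted p = 4.9e-05). The partner chain Col1a1 read 9.4, 7.8 and 9.9 on chow and 18.1, 30.0 and 23.9 at 12 weeks and its difference of 1.13 ± 0.34 did not pass (adjusted p = 0.061). Col5a2 and Col14a1, collagens of the fibril surface, rose by 1.57 ± 0.22 and 0.92 ± 0.12 (adjusted p = 0.00032 and 0.00012). Dpt, dermatopontin, which binds decorin, read 0.7, 2.9 and 2.3 on chow and 20.8, 114.8 and 18.7 at 12 weeks (2.94 ± 0.57, adjusted p = 0.0043), with HFD array 2 the highest. Its chow values were near the floor of the array. The basement membrane collagen gene Col4a1 and fibronectin (Fn1), which hepatocytes make, differed by 0.65 ± 0.22 and -0.25 ± 0.11, neither past the test. Among remodelling genes, Timp2, an inhibitor of metalloproteinases, rose by 0.83 ± 0.18 (adjusted p = 0.0094), while a dimmer probe set differed by -0.45, and Tgfbi, induced by TGF-beta, rose by 0.84 ± 0.12 (adjusted p = 0.0005). Mmp13, the collagenase of scar resolution, read 4.4, 0.1 and 0.4 on chow and 45.3, 10.3 and 9.9 at 12 weeks (2.16 ± 0.55), and its call ended without chow array 2 or 3 or HFD array 1 (adjusted p = 0.1 to 0.18). Chow values of Mmp13 also lay near the floor. Bgn, Dcn, Sparc, Timp3 and Col6a3 also rose (by 0.49 to 0.88) and lost the call for Bgn without chow array 1 or 3 or HFD array 1, 2 or 3 (adjusted p = 0.06 to 0.18), for Dcn without chow array 2 or 3 or HFD array 1 or 2 (adjusted p = 0.061 to 0.15), for Sparc without HFD array 1 (adjusted p = 0.059), for Timp3 without chow array 1 or HFD array 1 or 3 (adjusted p = 0.066 to 0.15) and for Col6a3 without chow array 3 or HFD array 2 (adjusted p = 0.057 to 0.074). Another probe set of Dcn differed by -0.36 and another of Sparc by -0.22.

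Markers of the cells that lay down matrix rose in part. Of 12 stellate cell markers 3 rose and none fell (median 0.51), and the list's summed intensity was 1980.4 to 2058.5 on chow and 2588.7 to 3117.2 on HFD. Acta2, a contractile gene of myofibroblasts and smooth muscle, read 29.9, 21.6 and 34.6 on chow and 49.8, 104.1 and 40.2 at 12 weeks (0.99 ± 0.25, adjusted p = 0.024). Tagln, another such gene, read 4.5, 1.7 and 22.5 on chow and 28.9, 46.6 and 30.9 at 12 weeks (1.92 ± 0.42, adjusted p = 0.0098). HFD array 2, which had the highest actin 3'/5' ratio, was highest in both. Colec11 rose by 0.55 ± 0.12, and the calls ended for Acta2 without chow array 2 or HFD array 2 (adjusted p = 0.083 to 0.12), for Tagln without chow array 2 (adjusted p = 0.062) and for Colec11 without chow array 3 or HFD array 1 or 2 (adjusted p = 0.051 to 0.068). Pdgfrb, the growth factor receptor of stellate cells, and Lrat, which stores retinol there, differed by 0.84 ± 0.25 and 0.45 ± 0.19 (adjusted p = 0.053 and 0.21). Of 18 endothelial markers 3 rose and none fell (median 0.17). The adhesion molecule gene Vcam1 read 44, 73.2 and 82.1 on chow and 243.9, 264.5 and 222 at 12 weeks (1.86 ± 0.24, adjusted p = 0.00012). Lyve1, a hyaluronan receptor of sinusoids, read 57.8, 37.5 and 30.6 on chow and 136.1, 112 and 111.2 at 12 weeks (1.48 ± 0.21, adjusted p = 0.00039). Vwf, von Willebrand factor, read 3, 0.7 and 1.5 on chow and 7, 31.7 and 14.6 at 12 weeks (1.91 ± 0.38, adjusted p = 0.0054). It was dim on the HFD arrays too, and its chow values were near the floor of the array. Pecam1, Stab2 and Clec4g, general and sinusoidal endothelial genes, differed by 0.25 ± 0.38, -0.22 ± 0.19 and 0.13 ± 0.11, none past the test.

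Injury genes rose in part. Of 16 genes of the injury response and YAP targets 4 rose and none fell, and the median was 0.91. Anxa2, a membrane-binding annexin that is low in healthy hepatocytes, read 109.2, 102.6 and 84.9 on chow and 970.8, 560.2 and 543.6 at 12 weeks (2.72 ± 0.32, adjusted p = 6.8e-05). Anxa5 read 794.5, 600.9 and 614.2 on chow and 2424.9, 1621.7 and 1876.8 at 12 weeks (1.55 ± 0.21, adjusted p = 0.00026). Klf6, an injury-induced transcription factor, read 46.3, 57.4 and 38.9 on chow and 134.2, 140.3 and 94.8 at 12 weeks (1.31 ± 0.23, adjusted p = 0.0019). All 3 were higher on each HFD array than on any chow array. Sox4 rose by 1.37 ± 0.39 and lost its call without chow array 1, 2 or 3 or HFD array 1 or 2 (adjusted p = 0.057 to 0.2). The YAP targets Ccn2 and Ccn1 and the immediate early genes Fos and Jun differed by 0.64 ± 0.24, 0.42 ± 0.37, 1.57 ± 0.83 and 1.22 ± 0.50, none past the test. In the list of fetal liver and tumour markers 3 of 9 rose and none fell. Ly6d, a surface antigen, read 27.3, 25.4 and 10.6 on chow and 607.5, 131.3 and 132.2 at 12 weeks (3.28 ± 0.52, adjusted p = 0.0009) and Lgals1, galectin 1, read 583.9, 492.8 and 487 on chow and 2844, 2432.6 and 1910.4 at 12 weeks (2.18 ± 0.32, adjusted p = 0.00039); Cd44, the hyaluronan receptor, rose by 0.94 ± 0.21, a call that ended without chow array 2 or 3 or HFD array 1 (adjusted p = 0.054 to 0.092). Afp and Gpc3, the usual markers of fetal and cancerous hepatocytes, differed by 0.60 ± 0.47 and 0.11 ± 0.67, neither past the test.

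Cell cycle genes rose in 12 of 41 members and fell in none, and the median was 0.82. The count was 6, 5 and 6 without chow array 1, 2 and 3 and 2, 11 and 7 without HFD array 1, 2 and 3, and 4 with only the WT chow and HFD 12 weeks arrays fitted and 7 without the variance trend. Mki67, the proliferation marker, read 0.8, 5.1 and 7.7 on chow and 47.7, 46.9 and 34.3 at 12 weeks (2.66 ± 0.43, adjusted p = 0.0012), and Mcm2, a subunit of the replicative helicase, read 35.4, 55 and 35.2 on chow and 203.5, 202.1 and 104.2 at 12 weeks (1.91 ± 0.23, adjusted p = 7.5e-05). Mki67, near the floor of the array on chow, and Mcm2 kept their calls whichever of the 6 arrays was removed. Of the other helicase subunits, Mcm5 read 46.4, 22.7 and 49.6 on chow and 322.7, 62.3 and 167.2 at 12 weeks (1.91 ± 0.43, adjusted p = 0.013) and Mcm6 49, 46.7 and 49.2 on chow and 237.8, 56.2 and 149.3 at 12 weeks (1.33 ± 0.36, adjusted p = 0.037), with HFD array 2 close to the chow level. Mcm3 and Mcm4 rose by 1.69 ± 0.37 and 1.49 ± 0.35, Cdc6, which loads the helicase, by 1.84 ± 0.51, and Top2a, the mitotic topoisomerase, by 1.62 ± 0.43. Ccnd1, cyclin D1, read 186, 234 and 224.4 on chow and 966.6, 331.4 and 455.3 at 12 weeks (1.29 ± 0.35, adjusted p = 0.039). Calls ended for Mcm5 without chow array 2 or HFD array 1 (adjusted p = 0.085 to 0.096), for Mcm6 without chow array 1, 2 or 3 or HFD array 1 or 3 (adjusted p = 0.075 to 0.21), for Mcm3 without chow array 2 or HFD array 1 (adjusted p = 0.052 to 0.065), for Mcm4 without chow array 2 or 3 or HFD array 1 (adjusted p = 0.069 to 0.12), for Cdc6 without chow array 1 or 3 or HFD array 1 or 3 (adjusted p = 0.068 to 0.24), for Top2a without chow array 1 or HFD array 1 or 3 (adjusted p = 0.078 to 0.18) and for Ccnd1 without chow array 1, 2 or 3 or HFD array 1 or 3 (adjusted p = 0.06 to 0.22). The mitotic kinase gene Cdk1 and the cyclin gene Ccna2 differed by 0.88 ± 0.28 and 1.08 ± 0.32 (adjusted p = 0.073 and 0.054).

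Replication genes are known targets of E2F factors, which bind short GC-rich sites. A high share of such sites in the cell cycle list thus follows from the choice of list and says nothing of the diet. A match again describes letters only. The 4 forms TTTCCCGC, TTTCGCGC, TTTGCCGC and TTTGGCGC, on both strands, were in 7 of the 31 cell cycle promoters that the RefSeq table holds, against 2.6% of all genes, and in 4 of the 10 that rose and have a promoter there. The windows of 3 that rose are shown because their matches (in capitals) lie upstream of the start: Mcm6 (chr1:128359710-128359850, minus strand), Mcm5 (chr8:75109321-75109402, plus strand) and Cdc6 (chr11:98907978-98908055, plus strand).
Mcm6: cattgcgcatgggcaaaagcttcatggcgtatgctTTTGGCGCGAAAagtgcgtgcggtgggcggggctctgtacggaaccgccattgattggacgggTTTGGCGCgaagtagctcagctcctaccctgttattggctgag
Mcm5: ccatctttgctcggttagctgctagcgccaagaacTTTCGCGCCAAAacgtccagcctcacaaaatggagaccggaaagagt
Cdc6: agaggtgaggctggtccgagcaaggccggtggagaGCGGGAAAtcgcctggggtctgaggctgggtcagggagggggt
The first match begins 110, 153 and 138 bases before the start in Mcm6, Mcm5 and Cdc6. Where more than 8 capitals follow each other, 2 matches on opposite strands overlap. The 3 calls ended for Mcm5 without chow array 2 or HFD array 1 (adjusted p = 0.085 to 0.096), for Mcm6 without chow array 1, 2 or 3 or HFD array 1 or 3 (adjusted p = 0.075 to 0.21) and for Cdc6 without chow array 1 or 3 or HFD array 1 or 3 (adjusted p = 0.068 to 0.24). The element of PPAR factors, AGGNCA repeated after 1 base, was in 0 of 21 promoters of the oxidation list, 0 of 18 of the lipid droplet list and 0 of 7 of the PPAR-gamma list, against 0.451% of all genes; this says only that these letters are not in these windows.

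Of 20 p53 targets 3 rose and none fell, with a median of 0.39. Ccng1, cyclin G1, read 326.5, 325.6 and 344.3 on chow and 678.2, 702.6 and 492.1 at 12 weeks (0.89 ± 0.12, adjusted p = 0.00023). Cdkn1a, the cell cycle inhibitor p21, read 31.6, 20.4 and 23 on chow and 102.8, 94.9 and 105.1 at 12 weeks (1.90 ± 0.47, adjusted p = 0.022), and Eda2r, a death-domain receptor, rose by 1.20 ± 0.28. These last calls ended for Cdkn1a without chow array 2 or 3 or HFD array 1 or 3 (adjusted p = 0.059 to 0.089) and for Eda2r without chow array 3 or HFD array 1 (adjusted p = 0.065 to 0.068). Mdm2, the p53 ubiquitin ligase and a target itself, differed by 0.13 ± 0.18 (adjusted p = 0.76).

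Some processes gave no call in either direction. None of 20 genes of glucose production and insulin response, 18 of the circadian clock, 35 of the respiratory chain and 2 major urinary protein genes was called by limma. At an unadjusted p under 0.05 they held 5, 2, 5 and 0 genes, against 2849 of all 14691 genes tested. The smallest p among the glucose genes was that of Pcx, pyruvate carboxylase (0.31 ± 0.09, adjusted p = 0.065), among the respiratory chain that of Cyc1, cytochrome c1 (-0.26 ± 0.09, adjusted p = 0.13), and among the urinary proteins that of Mup5 (0.67 ± 0.33, adjusted p = 0.27). Pck1 and G6pc, enzymes of glucose production, differed by -0.17 ± 0.20 and -0.52 ± 0.80, and the insulin receptor substrate genes Irs1 and Irs2 by -0.54 ± 0.19 and -0.64 ± 0.50. Clock genes varied within the chow group, whose array medians ran from -0.45 to 0.30, and Arntl, the core clock activator, read 118.6, 43.7 and 35 on chow and 22.1, 31.6 and 21 at 12 weeks. Of the 35 respiratory chain genes 6 differences were above 0 and the median was -0.09.

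Most called genes, 592 of 753, are in none of the lists. Among the largest rises outside them, Rad51b, a recombination repair gene, read 14.2, 11 and 13.6 on chow and 300.6, 182 and 141.2 at 12 weeks (3.64 ± 0.32, adjusted p = 1.8e-06), and Osbpl3, an oxysterol-binding protein, read 24.7, 10.6 and 21.7 on chow and 269.7, 172.1 and 240.1 at 12 weeks (3.41 ± 0.33, adjusted p = 6.7e-06). The transporter gene Slc22a29 read 18.7, 14.7 and 15.8 on chow and 416.2, 81.7 and 175.9 at 12 weeks (3.24 ± 0.40, adjusted p = 9.9e-05), and Tlr12, a receptor for parasite profilin, read 7.7, 3.6 and 8.3 on chow and 130.9, 43 and 64.9 at 12 weeks (2.97 ± 0.36, adjusted p = 7.7e-05), although another Tlr12 probe set differed by -0.15. The transcript 2010003K11Rik read 74.2, 73.3 and 63.8 on chow and 964.9, 380.8 and 576.9 at 12 weeks (3.03 ± 0.28, adjusted p = 5.2e-06). The transcript 1810053B23Rik read 4.2, 0.9 and 7.4 on chow and 66.3, 91.6 and 75.8 at 12 weeks (3.53 ± 0.50, adjusted p = 0.00029). All 6 were higher on every HFD array than on any chow array, which the rule that named them required.

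Among the largest falls outside the lists, Clec2h, a lectin-like receptor gene, read 264.8, 540.9 and 482.1 on chow and 8.3, 92.5 and 16 at 12 weeks (-3.90 ± 0.60, adjusted p = 0.00071). Egfr, the epidermal growth factor receptor that is abundant in liver, read 2486.8, 3386.7 and 2496.5 on chow and 336.9, 1073.8 and 763.8 at 12 weeks (-2.08 ± 0.30, adjusted p = 0.0004), while a dimmer Egfr probe set differed by 0.22. Slco2a1, the prostaglandin transporter, read 517.4, 597.4 and 452.6 on chow and 123, 122.5 and 149.9 at 12 weeks (-1.96 ± 0.34, adjusted p = 0.0019), and Car14, a membrane carbonic anhydrase, read 448.2, 479.3 and 347.3 on chow and 68.3, 147.1 and 144 at 12 weeks (-1.86 ± 0.24, adjusted p = 0.00011). Cadm4, a cell adhesion gene, and Barx1, a homeobox gene, were dim and fell by 1.97 ± 0.43 and 1.89 ± 0.41 (adjusted p = 0.0097 and 0.0093). Shroom1, Prap1 and Obp2a, also dim, fell by 2.46 ± 0.64, 1.95 ± 0.47 and 1.85 ± 0.48, and lost the call for Shroom1 without chow array 1, 2 or 3 or HFD array 1 or 2 (adjusted p = 0.058 to 0.12), for Prap1 without chow array 1 or 2 or HFD array 2 or 3 (adjusted p = 0.054 to 0.077) and for Obp2a without chow array 1, 2 or 3 or HFD array 1 (adjusted p = 0.067 to 0.18).

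The WT response was set beside that of AIM-KO mice at the same time, which shares no array with it. In AIM-KO livers 2645 genes (18% of those tested) were called between 12 weeks and chow, 1652 higher and 993 lower. Leaving out AIM-KO 12 weeks array 1 or 2 gave 1696 and 1754 calls. Of the 753 genes called in WT, 736 differed in the same direction in AIM-KO and 590 were called there in that direction, 78.4% of the WT calls and 22.3% of the AIM-KO calls. None was called in opposite directions. Over the genes that rose in WT the median change was 1.12 in AIM-KO, and over those that fell it was -0.62. The difference of the diet effects itself passed the test for 1 gene of 14691 (0.00681%), which was not called in WT. It passed for none of the 753. An unadjusted p under 0.05 in limma was seen for 164 of the 753 and for 1386 of all 14691 genes. The WT arrays that gave the 753 calls also enter this difference, so the 164 cannot be read against the share over all genes. The 1 became 0 without any of the 3 WT chow arrays, WT HFD array 3 or AIM-KO 12 weeks array 1 or 2, and 23 without WT HFD array 1. It became 2 without AIM-KO chow array 1 or 2, WT HFD array 2 or AIM-KO 12 weeks array 3.

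**Figure D5:**
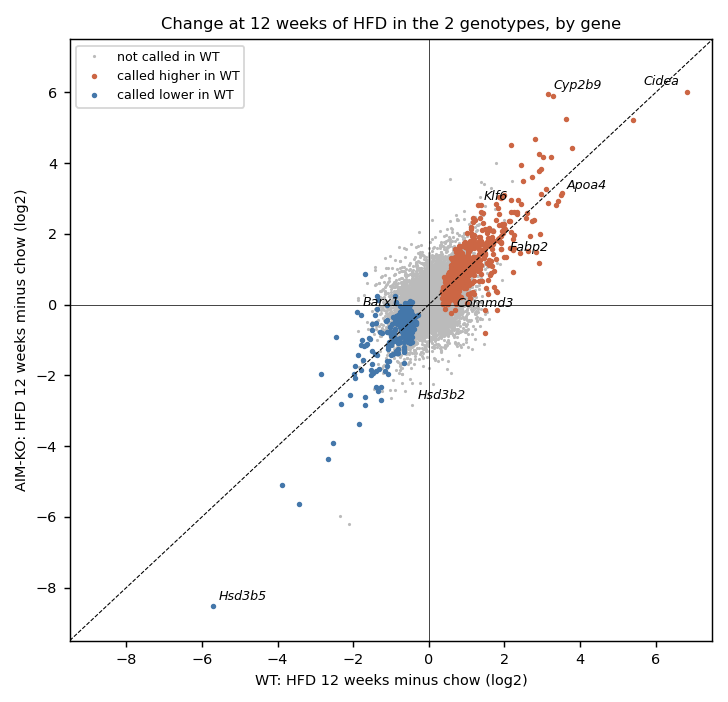
log2 change from chow to 12 weeks of HFD in WT (horizontal) and AIM-KO (vertical) for the 14691 genes tested; genes called higher in WT are orange, called lower blue, all others grey, and the dashed line marks equal changes. Of the 753 coloured genes 736 lie on the same side of 0 in both genotypes.

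Cidea, Cidec and Apoa4 changed by 6.01 ± 0.76, 5.23 ± 0.43 and 3.11 ± 0.15 in AIM-KO against 6.83 ± 0.76, 5.4 ± 0.43 and 3.51 ± 0.15 in WT, and their differences between genotypes were -0.82 ± 1.08 (adjusted p = 0.88), -0.17 ± 0.60 (adjusted p = 0.97) and -0.40 ± 0.21 (adjusted p = 0.56). The WT genes with the smallest p for the difference were Commd3, Vldlr, Klf6, Ugt2b1 and Fabp2. Commd3, of the copper metabolism domain family, rose in WT (0.59 ± 0.10, adjusted p = 0.00096) and differed by -0.23 ± 0.10 in AIM-KO (adjusted p = 0.11), a difference of -0.82 ± 0.13 (adjusted p = 0.063). Vldlr, Klf6 and Fabp2 changed by 2.60 ± 0.17, 2.82 ± 0.23 and 1.35 ± 0.11 in AIM-KO and by 1.43 ± 0.17, 1.31 ± 0.23 and 2.00 ± 0.11 in WT. Ugt2b1 changed by -1.65 ± 0.17 in AIM-KO and -0.67 ± 0.17 in WT, where its call ended without chow array 2 or 3 or HFD array 1 (adjusted p = 0.078 to 0.13). None of these differences passed the adjusted test. The gene that did is described in the closing section.

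Between 12 and 20 weeks of HFD in WT livers 3 genes were called (0.0204% of 14691): Ccn2 and Ntrk2 rose and Keg1 fell. This comparison shares the 12 week arrays with the one above. Ccn2, connective tissue growth factor, read 59.6, 114.2 and 69.2 at 12 weeks and 429.9, 300.8 and 451.1 at 20 weeks (2.27 ± 0.24, adjusted p = 0.00022), and Ntrk2, a neurotrophin receptor, read 78.3, 84.9 and 74.9 and 192, 254.7 and 306.9 (1.60 ± 0.22, adjusted p = 0.0058). Keg1, an acyltransferase-like gene of kidney and liver, read 522.5, 973.4 and 1228 and 318.7, 234.7 and 316.2 (-1.56 ± 0.26, adjusted p = 0.043); it had already fallen at 12 weeks (-1.34 ± 0.26, adjusted p = 0.0042). WT HFD 20 weeks replicate 2 read 3049.7 for Xist and 3.9 for Eif2s3y, the levels of female tissue, and without it 1 gene was called. Without 12 week array 1, 2 or 3 the counts were 33, 12 and 1. Of the 514 genes that rose at 12 weeks, 323 had a higher mean at 20 weeks than at 12. Of the 239 that fell, 141 had a lower one. The 12 week arrays enter both the calls and these differences, and the array with female levels enters the 20 week mean. The counts were not tested and are not set against the share over all genes, so they do not show a further response.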

How the data were processed

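Liver RNA of 18 samples was hybridized to Affymetrix Mouse Genome 430 2.0 arrays after biotin labelling of cRNA, per the labels' protocols. The authors deposited linear intensities per probe set, made with MAS5 per the submitters' processing notes (no version is given there). Each array's mean with 2% trimmed at each end is 100.0.

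Of 45101 probe sets 34945 name 1 gene, 932 several and 9160 none (64 are controls); symbols were updated through Entrez IDs for 34741. A probe set was kept if 3 or more arrays had it over their own 40th percentile, and the brightest stood for its gene, which left 14691 genes. log2(intensity + 3.3), the pseudocount being the 20th percentile, was fitted with limma 3.58.1 (R 4.3.3; lmFit, eBayes with trend) as 6 group means on all 18 arrays, with Benjamini-Hochberg adjustment and calls under 0.05. The fit was tested on simulated data. MAS5 sets each array to a common mean, so a change shared by all genes cannot be seen, and probe sets of near-identical genes can share signal.

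Members and gene lists were chosen with earlier results of these data known. Named genes are the 15 largest rises and falls without overlap, up to 6 called members of each list by size, the smallest p where a list had no call, and the 5 smallest p for the difference between genotypes; other list members, Xist, Eif2s3y and the motifs were chosen after their values were seen. Same-numbered arrays are not paired here. Alternatives were the pseudocount, quantile normalization, the filter, averaging over probe sets, no variance trend, only the compared groups, weighted arrays, the replicate number as a block, a minimum fold, the actin ratio and each array left out; the lists' counts without HFD array 1 were added after seeing the data.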

Additional observations from a re-analysis of the deposited data

Results flagged for a closer look

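Hsd3b2, a steroid dehydrogenase gene with near-identical copies, was the 1 gene whose diet effect at 12 weeks differed between the genotypes by the test of the difference itself. It read 348.8, 367.5 and 355.9 on chow and 210.4, 265 and 316.4 at 12 weeks in WT (-0.45 ± 0.24, adjusted p = 0.32), with no call. In AIM-KO livers it read 791.2, 1026.3 and 436.4 on chow and 86.8, 85 and 121.6 at 12 weeks (-2.83 ± 0.24, adjusted p = 6.6e-07). The difference, AIM-KO minus WT, was -2.38 ± 0.34 (adjusted p = 0.02). It lost the call under several of the alternatives listed under the dependence on processing.

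Outside the named genes, 50 of 5968 tested probe sets with no gene or several genes passed the same test between 12 weeks and chow in WT, 38 higher and 12 lower, or 0.838%. The largest rise was that of 1417867_at, from a mean of 2.4 to 220.4 (4.41 ± 0.78, adjusted p = 0.0055), and 1440284_at went from 6.87 to 86.3 (3.14 ± 0.30, adjusted p = 9.4e-06). Among the falls, 1441430_at went from 467.8 to 155.1 and 1440506_at from 89.2 to 30.6 (n = 3 arrays per group). They are unnamed here, and no gene is assigned to them.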

How the results depend on the processing

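The count of 753 genes moved by less than 1.5 times under each alternative except array weights (1314), a minimum fold of 1.5 (66) and the removal of single arrays (334 to 742, past that factor for HFD array 1 and chow array 2 or 3). The count was 540 without the variance trend, 561 with only the compared groups and 846 with the replicate block. Same-numbered arrays deviated together by r = 0.089, 0.024 and -0.004 (-0.061 to 0.035 between other numbers), so the numbers were not taken as a pairing. The difference between genotypes gave 0 genes without the variance trend, with only the compared groups or with a minimum fold, 19 with array weights, 2 with the replicate block and 0 to 23 with an array left out. For AIM-KO the count was 4229 with array weights, 281 with a minimum fold, and 1696 to 2340 with an array left out. From 12 to 20 weeks it was 5 with a pseudocount of 13.2, 1 with the mean of probe sets or a minimum fold, 9 with the replicate block, 25 with the actin ratio, and 1 to 33 with an array left out. The cause of these changes was not tested. The block fit otherwise kept 254 of 263 named genes on their side of the threshold. Of the 753 genes 287 kept their call whichever of the 6 arrays was removed. Genes that changed direction were not called in the fit reported above. The log2 differences were, under quantile normalization Acaa1b 0.037, Apob 0.030, Fabp1 0.000 and Orm1 0.001; with probe sets averaged Abhd5 -0.050, B2m -0.039, Clec4g -0.22, Mdm2 -0.10, Pnpla2 0.27, Scd1 0.41 and Trem2 0.037; with array weights B2m -0.034 and Srebf1 0.002; with the actin ratio as a covariate B2m -0.020 and Eif2s3y -0.58. With an array left out the ranges that cross 0 were Abhd5 -0.041 to 0.14, Acaa1b -0.17 to 0.017, Apob -0.14 to 0.026, B2m -0.070 to 0.066, Cideb -0.017 to 0.25, Cyp4a14 -0.36 to 0.15, Cyp51 -0.012 to 0.48, Ehhadh -0.030 to 0.20, Eif2s3y -0.058 to 0.097, Fabp1 -0.19 to 0.003, G6pc -1.01 to 0.16, Gpc3 -0.42 to 0.73, Il1b -0.41 to 0.19, Lpl -0.13 to 0.50, Mdm2 -0.021 to 0.25, Pnpla2 -0.28 to 0.046, Retn -0.55 to 0.27, Srebf1 -0.23 to 0.059, Stab2 -0.34 to 0.014, Stat5b -0.27 to 0.007 and Tgfb1 -0.018 to 0.45. In each setting between 45 and 52 of the 52 list medians moved by less than the SD between arrays. Genes near background carry less precise values.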
